A study of Mus musculus with 6 samples.

Results

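The distal ends of the mouse autosomes were taken as the last 1.5 Mb before the largest region end on each of chromosomes 1 to 19, the side away from the centromere. A region was counted as a member when its start lay within that stretch. A stretch of 0.22 Mb on chromosome 15, holding 2 regions, was left out by the same rule. The 19 ends held 1673 of the 192196 regions of 5-hydroxymethylcytosine (5hmC) in the table, and the interior of the same chromosomes held 187820. The rule used position alone and no measured level.

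5hmC is made when Tet enzymes, of which Tet1 is one, oxidise methylated cytosine. It is abundant in the nervous system, mostly within and around genes. Mouse autosomes carry their centromere close to one tip, so the distal end is the one that runs out to the telomere repeats through long arms of ordinary chromosome. Subtelomeres, the DNA just inside the telomere, differ widely between chromosomes in their gene content and often hold repeated sequence that is shared with other chromosome ends.

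The libraries compared came from Tet1 KO and Tet1 WT mice, 2 libraries of each, numbered sample 1 and sample 2. The labels name brain as the material, while the study's text describes astrocytes cultured from newborn pups of constitutive Tet1 knockouts and wild types, a loss that is present in every cell and from the start of life. For capture, 5hmC was given a glucose carrying an azide, to which biotin was attached, and the captured DNA was sequenced, so a count measures captured DNA and not the share of modified cytosines. The labels do not say whether the libraries came from separate animals or cultures, so the p-values measure only the spread between these libraries.

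The libraries held 16819455 to 19288900 counts. The 25 regions of highest mean count took 11.5% of the counts of KO sample 1 and 17.8% of WT sample 1, and 36.5% and 34.1% of KO and WT sample 2. One of those 25 regions was a distal end region. Counts were therefore scaled with the trimmed mean of M-values (TMM) to normalised read counts (CPM, counts relative to the scaled library size) and divided by region width for CPM per kb. On this scale 3 counts in a region equalled 0.141 to 0.195 CPM. The ends themselves received 114881 and 100125 counts in the KO libraries and 109866 and 107091 in the WT libraries, with a median of 36 to 48 counts per region.

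5hmC regions were thinner on the ground at the distal ends than in the interior. The ends held 59.2 regions per Mb over 28.28 Mb, against 78.7 per Mb over 2385.24 Mb of interior, a ratio of 0.751. They held 0.883% of the autosomal regions (Wilson 95% interval 0.842 to 0.926%) on 1.17% of the length, which puts the ratio of densities between 0.716 and 0.788. These intervals, like the floors above, cover counting error only and treat neighbouring regions as independent. Regions covered 3.01% of the bases of the ends and 4.44% of those of the interior. The member regions had a median width of 405 bp (quartiles 297 and 602, range 180 to 6177), against 437 bp (quartiles 307 and 679) for interior regions.

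The lower density was not shared by every end. Of the 19 ends, 14 were sparser than the interior of their own chromosome and 5 were denser. End densities ran from 10 to 154 regions per Mb, a range of 15.4-fold with a median of 46.7, whereas the interiors of the same chromosomes lay between 66.2 and 97.8. A chromosome with a dense interior did not have a correspondingly dense end: the Spearman correlation of the 19 pairs was 0.143, given as a description. Single 1.5 Mb stretches of the interior varied as much. The 5th percentile of 1575 such windows was 9.33 regions per Mb, the median 77.3 and the 95th percentile 168, and 0 of the 19 ends fell outside that range.

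**Figure D1:**
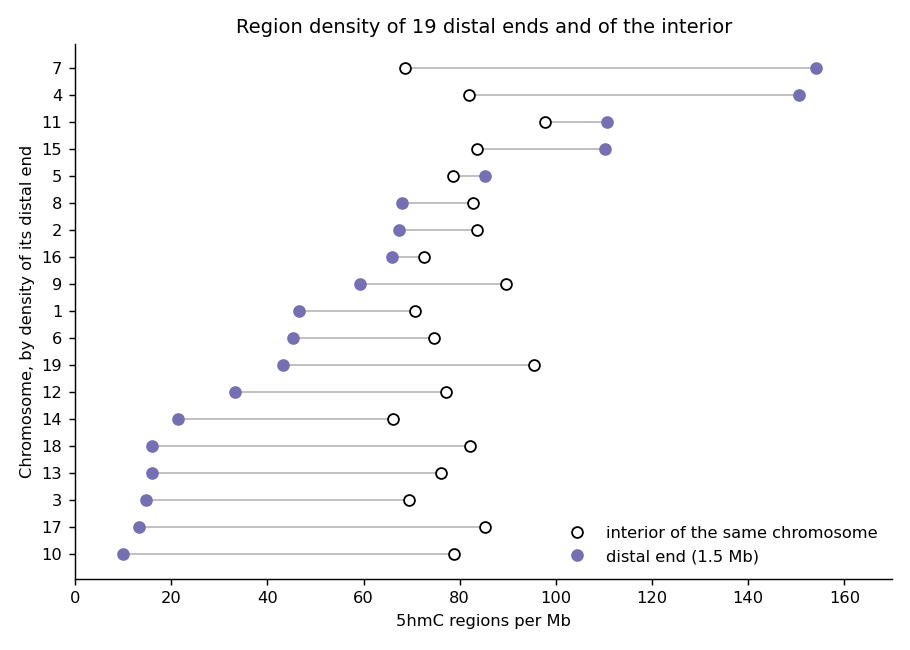
Regions per Mb (x axis) of the distal 1.5 Mb (filled points) and of the rest of the same chromosome (open points) for the 19 autosomes, ordered on the y axis by the density of the end. The ends run from 10 to 154 regions per Mb while the interiors stay between 66.2 and 97.8.

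The sparsest ends were those of chromosomes 10, 17 and 3. The end of chromosome 10 held 15 regions, or 10 per Mb against 78.9 in its interior, a ratio of 0.127. Chromosome 17 held 20 regions (13.3 per Mb, ratio 0.157) and chromosome 3 held 22 (14.7 per Mb, ratio 0.211). Only 3 of the 83 interior windows of chromosome 10 held fewer regions than its end. For chromosome 17 it was 4 of 60, and for chromosome 3 it was 14 windows. The ends of chromosomes 13 and 18 held 24 regions each and that of chromosome 14 held 32. These 6 ends together held 137 regions, 8.19% of the members. Their regions were short, with median widths of 230 to 299 bp, and lay a median of 29.6 to 62.4 kb apart. The longest stretch without a region was 365 kb on chromosome 13, 327 kb on chromosome 17 and 287 kb on chromosome 10.

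The densest ends were those of chromosomes 7, 4 and 11. Chromosome 7 held 231 regions, 154 per Mb against 68.7 in its interior, a ratio of 2.24. Chromosome 4 held 226 (150.7 per Mb, ratio 1.84) and chromosome 11 held 166 (110.7 per Mb, ratio 1.13). Of the interior windows of the same chromosome, 89 of 94 held fewer regions than the end on chromosome 7, 85 of 100 on chromosome 4 and 48 of 78 on chromosome 11. The ends of chromosomes 4 and 7 together held 457 regions, 27.3% of the members, and covered 8.91% and 8.54% of their bases, against 4.63% and 3.83% in the interiors. Their regions lay a median of 3.06 and 3.78 kb apart. The ends of chromosomes 15 (141 regions, ratio 1.32 over the 1.28 Mb kept) and 5 (128 regions, ratio 1.09) were the other denser ends, and these 5 held 892 regions, 53.3% of the members.

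The remaining ends lay between these groups. Chromosomes 8, 2 and 16 held 102, 101 and 99 regions, at 0.822, 0.806 and 0.909 of the density of their interiors. Chromosome 9 held 89 regions, chromosome 1 held 70, chromosome 6 held 68, chromosome 19 held 65 and chromosome 12 held 50. The ratios of these 5 ends were 0.662, 0.660, 0.607, 0.454 and 0.432.

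The gene order of another build, GRCm38.p6, gives a view of which genes lie outermost on these chromosomes. Regions could not be placed on its genes because the table uses mm9. The outermost protein-coding genes of chromosome 10 are the vomeronasal receptors Vmn2r87, Vmn2r86, Vmn2r85 and Vmn2r84, which detect pheromones, followed by Tespa1 and Neurod4. Chromosome 17 ends with Gm20939, Mettl4 and the neuropeptide gene Adcyap1, and chromosome 3 ends with the Wnt secretion factor Wls, Rpe65 and Depdc1a. The outermost genes of chromosome 7 include the receptors Mrgprd and Mrgprf and the ion channel gene Tpcn2. Further in, they include the cell cycle gene Ccnd1 and the growth factors Fgf15 and Fgf4. Chromosome 4 ends with Vmn2r129 and then Samd11, Noc2l, Klhl17, Plekhn1, Perm1, Isg15 and Agrn. Chromosome 11 ends with Gm9631, Ptchd3, Metrnl, B3gntl1 and the tubulin cofactor Tbcd. Which of these genes overlap 5hmC regions was not determined.

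Density changed with distance from the end. The outermost region of each chromosome sets that end, so it falls in the first distance class by construction and raises the density there. Pooled over the 19 ends, the outermost 0.1 Mb held 57.9 regions per Mb, and the density was 41.8 from 0.1 to 0.25 Mb, 46.4 from 0.25 to 0.5 Mb, 63.4 from 0.5 to 1 Mb and 66.7 from 1 to 1.5 Mb. Beyond the edge of the distal end it was 92.9 from 1.5 to 2 Mb, 110.6 from 2 to 3 Mb, 108.6 from 3 to 5 Mb and 117 from 5 to 10 Mb. In the pooled profile the classes below the interior density of 78.7 per Mb were thus those of the last 1.5 Mb. That edge was set by the rule, and density still rose beyond it, from 92.9 to 110.6 per Mb. Single chromosomes differed: from 1.5 to 3 Mb, 17 of the 19 chromosomes were denser than in their own end and 14 were denser than in their own interior. Chromosome 17 held 24 regions there (16 per Mb) and chromosome 18 held 22 (14.7 per Mb), as sparse as their ends. Chromosomes 3 and 13, at 37.3 and 41.3 per Mb, were also well below their interiors. From 1.5 to 10 Mb the 19 chromosomes held 113 regions per Mb, 1.43 times the interior density, and the ends stood at 0.524 of that. Compared with this neighbouring stretch of the same chromosome, 18 of the 19 ends were sparser, at ratios from 0.117 on chromosome 10 upward, the exception being chromosome 7 at 1.38. With ends of 3 Mb the ratio to the interior became 1.05, so the lower density of the ends depends on where the end is drawn. With ends of 1 Mb it was 0.703.

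**Figure D2:**
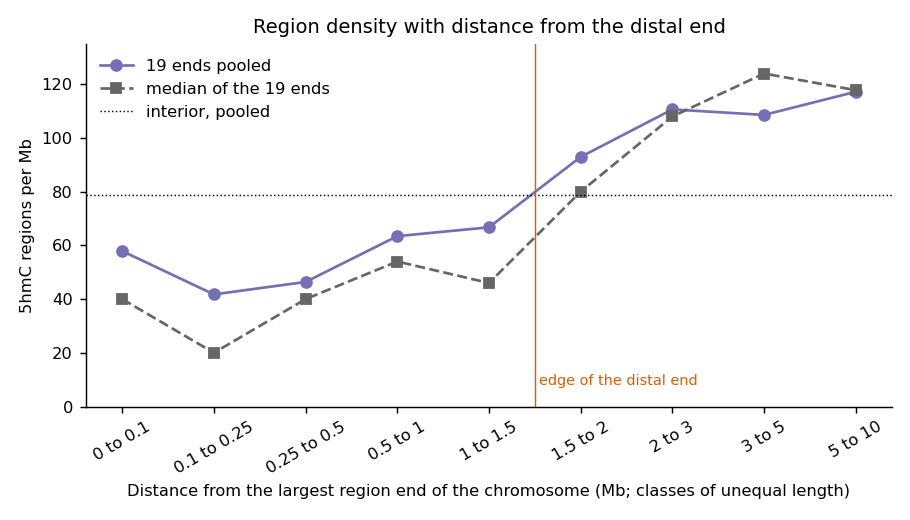
Regions per Mb (y axis) in 9 classes of distance from the largest region end (x axis, Mb, classes of unequal length), pooled over the 19 ends (circles) and as the median of the ends (squares); the dotted line is the interior. Density is 41.8 to 66.7 per Mb within the distal end and 92.9 to 117 from there to 10 Mb.

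The edge itself was not marked by a step in level. The 19 members just inside it, 1 for each chromosome, had a median of 6.10 CPM per kb in WT (range 0.135 to 17.6) and the 19 regions just outside it 5.29 (range 0.473 to 17.1).

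The level of 5hmC per length of region was close to that of the interior. In KO sample 1 the median was 5.29 CPM per kb for end regions and 5.92 for interior regions. In KO sample 2 it was 5.75 and 5.79, in WT sample 1 5.52 and 5.82, and in WT sample 2 5.49 and 5.76. All 4 libraries thus had the lower median at the ends. The ratio of end to interior was 0.951 ± 0.00279 (SD, n = 2) in WT and 0.944 ± 0.0714 (SD, n = 2) in KO. The WT ratio of the medians was also 0.951 with the 25 regions of highest mean count removed. Taken from the CPM summed over the summed widths, it was 0.760 with all regions and 0.999 with those 25 removed, so the size of the difference depended on how it was measured. Level also varied little with distance from the end, with WT medians of 5.36 to 5.92 CPM per kb over the 9 distance classes.

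Sparse ends also held weaker regions. The WT median was 1.06 ± 0.653 CPM per kb (SD, n = 2) at the end of chromosome 10, 1.54 ± 0.357 at that of chromosome 17 and 1.97 ± 0.023 at that of chromosome 3. The interiors of these chromosomes had medians of 5.74, 5.78 and 5.70. The low levels rest on few reads. Regions of the 5 sparsest ends had a median of 10 and 13 counts in WT sample 1 and 2, against 45 and 44 at the 5 densest. At the dense ends the level was that of the interior, with 6.04 ± 0.367 on chromosome 7, 5.53 ± 0.368 on chromosome 4 and 5.64 ± 0.035 on chromosome 11. Over the 19 ends the density of regions rose with their median width (Spearman 0.812) and with their WT CPM per kb (Spearman 0.752). These values are descriptions: all ends share the same libraries, and density, width and count all come from 1 list of called regions. Of the 19 ends, 15 had a lower WT median level than their interior and 15 had narrower regions.

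The widest members lay on dense ends. The widest, chr4:154587885-154594061, was 6177 bp long and had 1128 and 1279 counts in the KO libraries and 1072 and 1100 in the WT libraries, or 9.81 ± 0.767 CPM per kb in WT (SD, n = 2). The next were chr4:155211418-155214543 with 3126 bp and 9.18 ± 0.904 CPM per kb, and chr5:151871684-151874300 with 2617 bp and 8.47 ± 1.36 CPM per kb. The log2 KO to WT ratios of these regions were 0.17 ± 0.29, 0.10 ± 0.27 and -0.17 ± 0.28 (SE), each smaller than its error.

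The highest levels per length were found at the very tips of chromosomes 18 and 2. The outermost region of chromosome 18, chr18:90771438-90772146, is 709 bp long and had 1312 and 2804 counts in KO sample 1 and 2 and 2269 and 4929 in WT sample 1 and 2. It ranked 21st among all regions by mean count and alone held 60.1 to 90.1% of the counts of its end. The outermost region of chromosome 2, chr2:181747345-181748085, is 741 bp long and had 848, 1882, 1482 and 3180 counts in the same order. It held 14.3 to 38.2% of the counts of its end. Their WT levels were 288 ± 165 and 178 ± 101 CPM per kb (SD, n = 2), far above the median of the ends. The third highest, chr2:181665091-181665327, stood at 74.2 ± 21.4 CPM per kb.

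The outermost region of chromosome 11, chr11:121843530-121843993, showed the same order of libraries at a lower level, with 122 and 294 counts in KO and 191 and 422 in WT. In all 3 regions sample 2 exceeded sample 1 in both genotypes, by 2.14 to 2.41 times in raw KO counts and 2.15 to 2.21 times in raw WT counts. Raw counts in KO were below WT of the same sample number, at 0.572 to 0.639 times in sample 1 and 0.569 to 0.697 times in sample 2. In CPM, sample 2 was 2.96 to 3.34 times sample 1 in KO and 2.34 to 2.41 times in WT. KO was 0.502 to 0.561 times WT in sample 1 and 0.636 to 0.779 times in sample 2 on that scale. The spread between the libraries of 1 genotype was therefore larger than the difference between genotypes, and the groups overlapped: the log2 KO to WT ratios were -0.74 ± 0.46 on chromosome 18, -0.71 ± 0.45 on chromosome 2 and -0.49 ± 0.46 on chromosome 11 (SE, edgeR). Without WT sample 2 they became 0.0074, 0.033 and 0.28. Of 74 members with a mean count of at least 200, these 3 were the ones more than 2-fold higher in CPM in sample 2 than in sample 1 in both genotypes. The same profile was seen in 21 of 11083 interior regions of that depth and in 20 of the 25 regions of highest mean count in the table. Those 25 include the tip of chromosome 18 itself and may overlap with the interior set, so these are not separate observations. Whether reads from other copies of a repeated sequence were placed in the 3 tip regions was not tested.

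The regions next to these tips had far lower counts. Per length their WT levels were 6.13, 6.41 and 7.99 CPM per kb on chromosomes 18, 2 and 11. These were not below the medians of the end regions, 5.52 in WT sample 1 and 5.49 in WT sample 2. The next region inward on chromosome 18, chr18:90756441-90756783, had 46 and 14 counts in KO and 46 and 30 in WT, and that on chromosome 2 had 19, 12, 16 and 51. The outermost region of chromosome 10 had 57, 58, 102 and 39 counts, that of chromosome 17 had 25, 26, 30 and 23, that of chromosome 3 had 110, 30, 122 and 40, that of chromosome 4 had 15, 17, 10 and 11, and that of chromosome 7 had 60, 34, 41 and 70. On chromosome 6 the outermost region had 8, 28, 24 and 18 counts, and on chromosome 9 it had 2, 0, 0 and 0. That of chromosome 8, named after its values were seen, had 138, 56, 148 and 108 counts, more than that of chromosome 11 in KO sample 1 and fewer in the other libraries. Its WT level was 9.92 CPM per kb, against 37.4 on chromosome 11. Counts above 1000 in any library were found at the tips of chromosomes 2 and 18 alone among the 19.

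**Figure D3:**
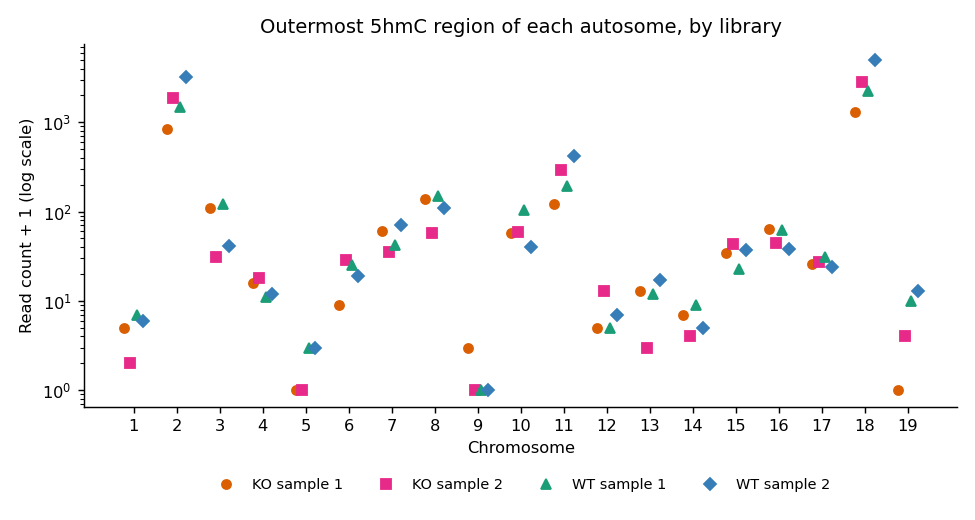
Read count plus 1 (y axis, log scale) of the outermost region of each autosome (x axis) in the 2 KO and 2 WT libraries. The regions of chromosomes 18, 2 and 11 are the highest in both sample 2 libraries, with 4929, 3180 and 422 counts in WT sample 2.

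The comparison of KO with WT asked whether the ends lost or gained 5hmC relative to other regions without Tet1. Both the division by the interior and the TMM scaling remove a loss that all regions share. The study's text reports a lower global level of the mark in KO astrocytes by dot blot. Whether the ends took part in such a shared loss was not tested. Summed over all ends and set against the interior of the same library, the log2 ratio of counts was -7.22 and -7.55 in KO, against -7.24 and -7.48 in WT. The difference of the means, KO less WT, was -0.027, within the spread of either genotype (exact permutation test, two-sided, p = 1; 2 against 2 libraries cannot give less than 0.33). Once the 25 regions of highest mean count were taken out, the values were -7.06 and -6.92 for KO, against -6.98 and -6.94 for WT, and the difference was -0.034 (exact permutation p = 1). No shift of the ends as a whole against the interior was therefore detectable with these libraries. The direction of so small a value was not fixed: it was 0.034 with ends of 3 Mb, 0.13 without KO sample 2 and 0.09 without WT sample 1.

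Of the 1673 members, 1500 passed the filter on low counts, and 0 of these differed between KO and WT at an adjusted p of 0.05 by edgeR's quasi-likelihood test. Of the 176957 regions tested in all, 0% did. DESeq2 also called 0 members, against 0.00339% of all regions. At an unadjusted p of 0.05, edgeR placed 26 members higher in KO, 1.73% against 1.54% of all regions, and 19 lower, 1.27% against 1.27%, and DESeq2 placed 36 in either direction, 2.40% against 1.97%. Both KO libraries lay above both WT libraries in 213 members, 14.2% against 15.3% of all regions, and below them in 234, 15.6% against 15.6%. The shares at the ends were near those of all regions in each case. The median log2 KO to WT ratio was 0.02 over these 1500 members and 0.02 over the interior regions tested, with 763 members above 0 and 737 below.

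These calls depended on the KO libraries. Without KO sample 1, edgeR called 121 of the 1500 members (69 higher and 52 lower in KO, 8.07% against 7.65% of all regions), and without KO sample 2 it called 31 (4 higher and 27 lower, 2.07% against 1.11%). Such a fit leaves KO with 1 library that is assumed to vary like the WT libraries. Without either WT library it called 0. The spread was wider between the KO libraries than between the WT libraries, with an SD of the log2 ratio of sample 1 to sample 2 of 0.826 over the members in KO and 0.495 in WT. The interior had 0.788 and 0.472.

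The members of lowest unadjusted p are given by their counts, since edgeR gave each an adjusted p of 1.00. At chr9:123832597-123834311 the counts were 6 and 4 in KO against 62 and 41 in WT, and the log2 ratio was -3.36 ± 0.74 (SE). The region chr2:181665091-181665327, the third highest by level, had 147 and 108 counts in KO and 262 and 364 in WT (-1.34 ± 0.31), and chr2:180394106-180395273 had 34 and 17 against 78 and 118 (-2.01 ± 0.48). In these regions both KO libraries lay below both WT libraries, as the rule for picking them required.

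On the other side, chr2:180954284-180954873 received 92 and 73 counts in KO, against 27 and 20 in WT (log2 ratio 1.79 ± 0.48, SE). The region chr11:121564889-121565718 had 185 and 112 against 56 and 58 (1.33 ± 0.37), and chr7:151361097-151362103 had 120 and 105 against 53 and 44 (1.20 ± 0.40). In these both KO libraries lay above both WT libraries, again as required. These 6 regions were picked for their p-values among members with no overlap between genotypes, so neither property is a result.

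Each end was also tested as 1 window among 1610 windows of 1.5 Mb covering the autosomes. After TMM scaling, none of the 19 ends differed between KO and WT at an adjusted p of 0.05 by edgeR, which called 0% of all windows. At an unadjusted p of 0.05, 0 ends differed, against 0.248% of all windows. DESeq2 called 0 ends. The log2 KO to WT ratios of the ends ran from -0.63 to 0.11 with a median of -0.05. 7 ends were above 0 and 12 below, and 17 lay within 1 SE of 0. The KO libraries lay above the WT libraries without overlap at 1 end, against 5.65% of all windows, and below at 1 end, against 7.33%.

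The end with KO above WT was that of chromosome 6, where KO stood at 228 and 217 CPM against 212 and 199 in WT (log2 ratio 0.11 ± 0.17, SE). The end with KO below WT was that of chromosome 10, the sparsest, with 14.3 and 13.4 CPM in KO and 18.1 and 15.9 in WT (-0.29 ± 0.33). Neither ratio exceeded its standard error.

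The lowest ratio, -0.63 ± 0.44 (SE), was that of chromosome 18, with 102 and 205 CPM in KO and 157 and 318 in WT. The libraries paired by number in the order seen at the chromosome tip, and the groups overlapped. Without the outermost region, a comparison chosen after its values were seen, the remaining 23 regions summed to 40.8 and 23.0 CPM in KO, against 35.6 and 31.6 in WT, and the log2 ratio of the means was -0.08. With all its regions, the ratio of this end was -0.029 without WT sample 2 and -0.21 without KO sample 1. It was -1.05 without WT sample 1 and -1.21 without KO sample 2, so its size in these fits depended on the library left out. Each such fit leaves the sample numbers unequal between genotypes. Between libraries of the same number, the log2 KO to WT ratio of CPM was -0.62 in sample 1 and -0.63 in sample 2. On chromosome 2 the summed CPM were 278 and 456 in KO, against 336 and 484 in WT, and became without the tip 238 and 334 against 257 and 299, a log2 ratio of the means of 0.04. On chromosome 9 they were 216 and 287 in KO and 279 and 295 in WT (-0.19 ± 0.18).

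After chromosome 6, the next highest ratios were those of chromosomes 11 and 4, both dense ends. Chromosome 11 had 531 and 782 CPM in KO and 605 and 623 in WT (0.10 ± 0.18, SE), and chromosome 4 had 802 and 1113 in KO and 867 and 949 in WT (0.08 ± 0.17). The sparse end of chromosome 13 followed at 0.06 ± 0.33. The end of chromosome 7, the densest, had 806 and 1129 in KO and 909 and 979 in WT (0.04 ± 0.17). At the ends of chromosomes 11, 4 and 7 the WT libraries lay between the KO libraries. The ratios therefore depended on the KO library kept. Without KO sample 1 the log2 ratios of chromosomes 11, 4 and 7 were 0.35, 0.29 and 0.26. Without KO sample 2 those of chromosomes 11 and 4 were -0.21 and -0.18. Those of chromosomes 18 and 2 were then -1.21 and -0.56, at ends where the outermost region held 60.1 to 90.1% and 14.3 to 38.2% of the counts.

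**Figure D4:**
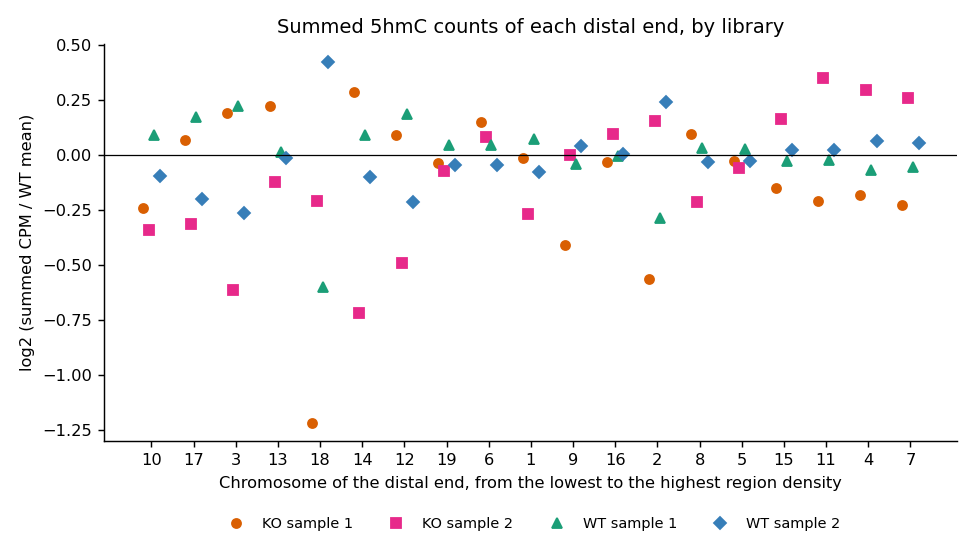
Log2 of the summed CPM of each distal end over the WT mean (y axis) in the 4 libraries, with the ends ordered on the x axis from the lowest to the highest region density. KO sample 2 (squares) is the highest library at the 4 densest ends and KO sample 1 (circles) the lowest, and chromosome 18 stands apart with the sample 1 libraries low.

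The order of the libraries at an end went with the density of its regions. KO sample 2 was the lowest of the 4 libraries at 10 ends and the highest at 5, while WT sample 1 was the highest at 7 and the lowest at 0. The 5 densest ends together had 3130 and 4103 CPM in KO and 3431 and 3596 in WT. At these ends KO sample 1 was 0.891 times the WT mean and KO sample 2 was 1.17 times. The 5 sparsest had 244 and 310 CPM in KO, against 303 and 437 in WT, which put both KO libraries below the WT mean, at 0.660 and 0.838 times. Once the tip of chromosome 18 was left out, they had 183 and 128 CPM in KO, against 182 and 150 in WT, and KO sample 1 was then 1.10 times the WT mean and KO sample 2 was 0.769 times. The groups of 5 ends were formed after the densities were seen.

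The same relation held for the interior. With the level of a library taken as the log2 of its CPM over the mean of the 4 libraries, its Spearman correlation with density over the 19 ends was positive in both sample 2 libraries, at 0.778 in KO and 0.376 in WT, and negative in both sample 1 libraries, at -0.479 in KO and -0.617 in WT. Over 1572 interior windows it was 0.632 and 0.223 in the sample 2 libraries and -0.523 and -0.560 in the sample 1 libraries, KO before WT. These are descriptions across windows that share the libraries and the scaling, and the 4 relative levels of a window are not independent of each other. In WT sample 2 the relation was one of ranks: Pearson's r was -0.019 over the ends and -0.0070 over the interior windows, whereas in the other libraries it had the sign of the rank correlation. The part that this difference between libraries plays in the ratios of single ends was not tested.

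**Figure D5:**
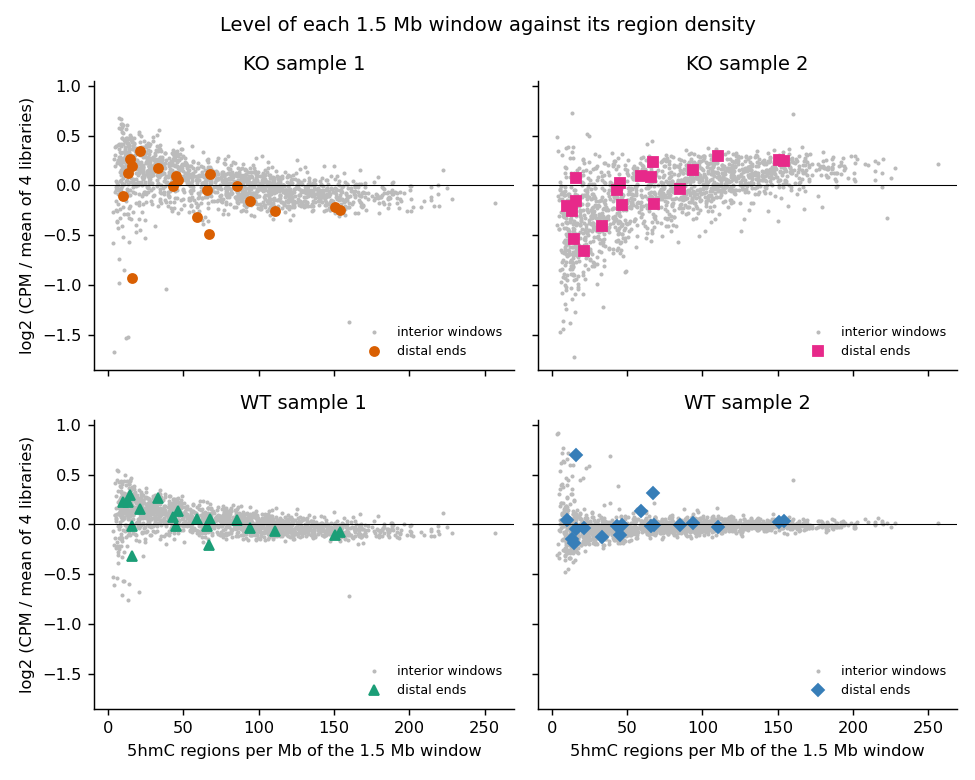
Log2 of the CPM of each 1.5 Mb window over the mean of the 4 libraries (y axis) against the regions per Mb of the window (x axis), 1 panel for each library, with the 19 distal ends in colour over the interior windows in grey (chromosome 15 over the full window length, its left-out stretch included). The ends follow the grey windows, rising with density in KO sample 2 (Spearman 0.778 over the ends) and falling in KO sample 1 (-0.479) and WT sample 1 (-0.617).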

How the data were processed

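The authors deposited raw read counts per region, as whole numbers, for 1 shared list of regions in 4 5hmC libraries. The submitters' processing notes name Bowtie2 2.2.6 and the build mm9. The region caller, the counter, the removal of duplicates and the placing of reads that fit more than 1 place are not given in the sources used here, and the last of these bears on repeated sequence at chromosome tips. The 2 input libraries were not analysed here. On 9 autosomes the regions ran beyond the GRCm38 chromosome, the only build at hand, so no region was placed on a gene and no sequence is printed; GRCm38.p6 served for gene order alone.

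Libraries were grouped by genotype from the labels. Regions were filtered with filterByExpr (minimum count 10, total 15), scaled by TMM, and tested for KO against WT in edgeR 4.0.16 (R 4.3.3) with its quasi-likelihood test, adjusted by Benjamini-Hochberg over all 176957 regions, or over 1610 windows of 1.5 Mb counted back from each distal end and scaled with the library sizes of the region fit. DESeq2 1.42.0, other filters, other scalings, ends of 1 and 3 Mb and fits without each library were alternatives. Scripts were checked on simulated counts with known changes. Summaries used Python 3.11.15. The depth was 16819455 to 19288900 counts per library. The ends were measured from the largest region end, not from the telomere. Named regions were the 3 of highest WT CPM per kb, the 3 widest, the outermost of each named chromosome, and the 3 of lowest p in each direction with no overlap between genotypes; named ends were the 3 densest, the 3 sparsest and the 3 of highest and of lowest ratio. The ends and the rules were chosen with earlier results of these data known.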

Additional observations from a re-analysis of the deposited data

How the results depend on the processing

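The count of member regions at an adjusted p of 0.05 by edgeR was 0 under other scalings, filters and end lengths and with DESeq2, and 0 to 121 when single libraries were left out. For whole ends it was 0 likewise, including TMM factors computed on the windows, an alternative chosen after seeing the data, and 0 to 3 when single libraries were left out. The density ratio of 0.751 became 0.703 with ends of 1 Mb, 1.05 with ends of 3 Mb and 0.703 when the regions averaged 20 counts or more. The ratio of WT CPM per kb of 0.951 became 0.961 with ends of 1 Mb, 0.980 with ends of 3 Mb and, from sums over the widths, 0.999 without the 25 regions of highest mean count and 0.760 with all regions, the last chosen after seeing the data. The KO less WT difference of the ends against the interior was 0.034 with ends of 3 Mb and ran from -0.19 to 0.13 without single libraries. Among named ends, leaving out single libraries gave log2 ratios of -1.21 to -0.029 for chromosome 18, -0.41 to 0.000984 for chromosome 9, -0.18 to 0.29 for chromosome 4 and -0.21 to 0.35 for chromosome 11, the last 3 changing direction without KO sample 1 (9) or KO sample 2 (4 and 11). Named regions with a fit changed direction in 15 of 126 alternatives, all of which left out a library. The 6 of lowest p kept theirs. They were picked for having no overlap between genotypes, so leaving out a single library could hardly reverse them. Their constancy is therefore no measure of stability. The ranges were -1.73 to 0.0074 for the tip of chromosome 18, -1.73 to 0.033 for chromosome 2, -1.60 to 0.28 for chromosome 11, -0.76 to 0.51 for chromosome 10, -0.33 to 0.20 for chromosome 17, -1.18 to 0.63 for chromosome 3, -1.62 to 0.64 for chromosome 6 and -0.69 to 0.20 for chromosome 7. For the 3 widest regions they were -0.20 to 0.46 and -0.068 to 0.25 on chromosome 4 and -0.32 to 0.0090 on chromosome 5.

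The labels give only a pair of shared sample numbers. Deviations from the genotype means correlated between same-numbered libraries at 0.159 over the members and 0.834 over the ends. Over all tested regions the correlation was 0.167 and over all tested windows 0.710, so it was not particular to the ends. In a fit with the number as replicate block, edgeR called 0 members and 0 ends, against 79 of all regions (0.0446%) and 1 of all windows (0.0621%). In that fit the end of chromosome 18 had a log2 ratio of -0.62 ± 0.18 (SE) and an edgeR adjusted p of 0.317. By pair, the KO less WT difference of the ends was 0.016 in sample 1 and -0.07 in sample 2. With 2 libraries of each genotype, a median SE of 0.528 on the log2 scale over the members limits what could be detected.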
